A study of Mus musculus with 4 samples.

Results

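The thalamus of mice whose midbrain dopamine neurons had been driven for 1 week was measured in 2 GqCNO mice and 5 control mice, as 7 of the 47 columns of one mouse and one brain region in the series. The members are the thalamus columns of the midbrain sections: GqCNO mice 804 and 781, GqVeh mice 802, 784 and 785, and CNO alone mice C2W2 and C1W7. The third GqCNO mouse, 801, has no thalamus column. Each column is the average over 8 to 39 Visium discs, which are printed spots that capture the poly(A) RNA of the cells lying above them, and a disc holds several cells of mixed type.

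The thalamus passes sensory, motor and limbic information to the cortex through glutamatergic relay neurons, and in the mouse most of its nuclei hold few inhibitory neurons apart from the reticular nucleus at its edge. Relay neurons carry the transcription factor Tcf7l2 and the vesicular glutamate transporter Slc17a6. Below it lie the dopamine neurons of the ventral tegmental area (VTA) and the substantia nigra (SN), in the same section. In the study the thalamus served as the region of the midbrain section without dopamine neuron cell bodies, so the comparison asks which differences between GqCNO mice and controls were also present outside the targeted nuclei.

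All mice were males of 3 to 4 months with the genotype DAT (iCre/iCre), in which Cre is driven by the gene of the dopamine transporter, and all were single housed with a running wheel. GqCNO mice were injected on both sides of the midbrain with AAV-hM3Dq(Gq)-mCherry, a conditional virus that places an engineered Gq-coupled receptor in cells with Cre, and drank its ligand clozapine-N-oxide (CNO, 300 mg/L) in 2% sucrose for 1 week. GqVeh mice carried the same virus and drank 2% sucrose alone. CNO alone mice were not injected and drank CNO in 2% sucrose. Thalamus discs were chosen by the study from their position and from Prkcd, Ptpn3 and Synpo2, and discs rich in Gfap, Aldh1l1, Aif1 or P2ry12 were left out, so the levels of these genes were partly set by the choice of discs.

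The GqCNO columns were the deepest, with 444790 UMIs (mouse 804) and 387629 UMIs (mouse 781), against 80837 to 296950 UMIs in the controls. Mouse C2W2 had the fewest discs (8) and UMIs and stood apart: it held the highest value of the 7 mice for 1780 of 6399 tested genes (27.8%) and the lowest for 1396 (21.8%). Mouse C1W7 had 2448 UMIs per 10000 from the 13 mitochondria-encoded respiratory chain genes, against 1196 to 1429 in the other 6 mice. Mice 804, 802 and C2W2 shared array 1, and mice 781, 784, 785 and C1W7 shared array 2, so each array held 1 GqCNO thalamus. Levels below are UMIs per 10000, counting error alone gives a gene with 0 UMIs an upper limit of 0.0674 to 0.371 per 10000, and differences are on the log2 scale after 0.5 is added to each level.

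The discs carried the genes of the thalamus and almost none of the dopamine neuron genes Th and Slc6a3. Prkcd, a protein kinase C isoform of relay neurons that the study used to place the discs, was at 11.9 and 10.3 in GqCNO mice, 8.01, 6.43 and 11.02 in GqVeh mice and 1.11 and 10.2 in CNO alone mice. C2W2 lay far below the other 6 mice, among which the groups overlapped. Ptpn3, a tyrosine phosphatase, was at 3.30 and 3.53 in GqCNO mice, 2.64, 3.10 and 2.23 in GqVeh mice and 3.22 and 3.15 in CNO alone mice. Synpo2, which codes for an actin-binding protein, was at 2.43 and 2.73 in GqCNO mice, 2.74, 1.58 and 1.79 in GqVeh mice and 1.61 and 1.75 in CNO alone mice. Both genes were measured in every mouse at similar levels, C2W2 included. Tcf7l2, which the rule for the discs did not use, was at 7.33 and 5.91 in GqCNO mice, 11.9, 8.86 and 6.63 in GqVeh mice and 16.3 and 8.45 in CNO alone mice. The GqCNO value of mouse 804 lay inside the control range, and that of mouse 781 below it. Th, the rate-limiting enzyme of dopamine synthesis, was at 0 in both GqCNO mice and at 0.03 to 0.20 in the controls, and Slc6a3, the dopamine transporter, was at 0 in both GqCNO mice and at 0 to 0.10 in the controls. Tac2, a marker of the habenula, was at 0 in all 7 mice, the only 1 of 9 listed habenular genes that was. The summed level of the 9 was 0.04 and 0.10 in GqCNO mice and 0.20 to 0.22 in GqVeh mice. It was 0.62 in C2W2, the highest, and 0.10 in C1W7.

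**Figure D1:**
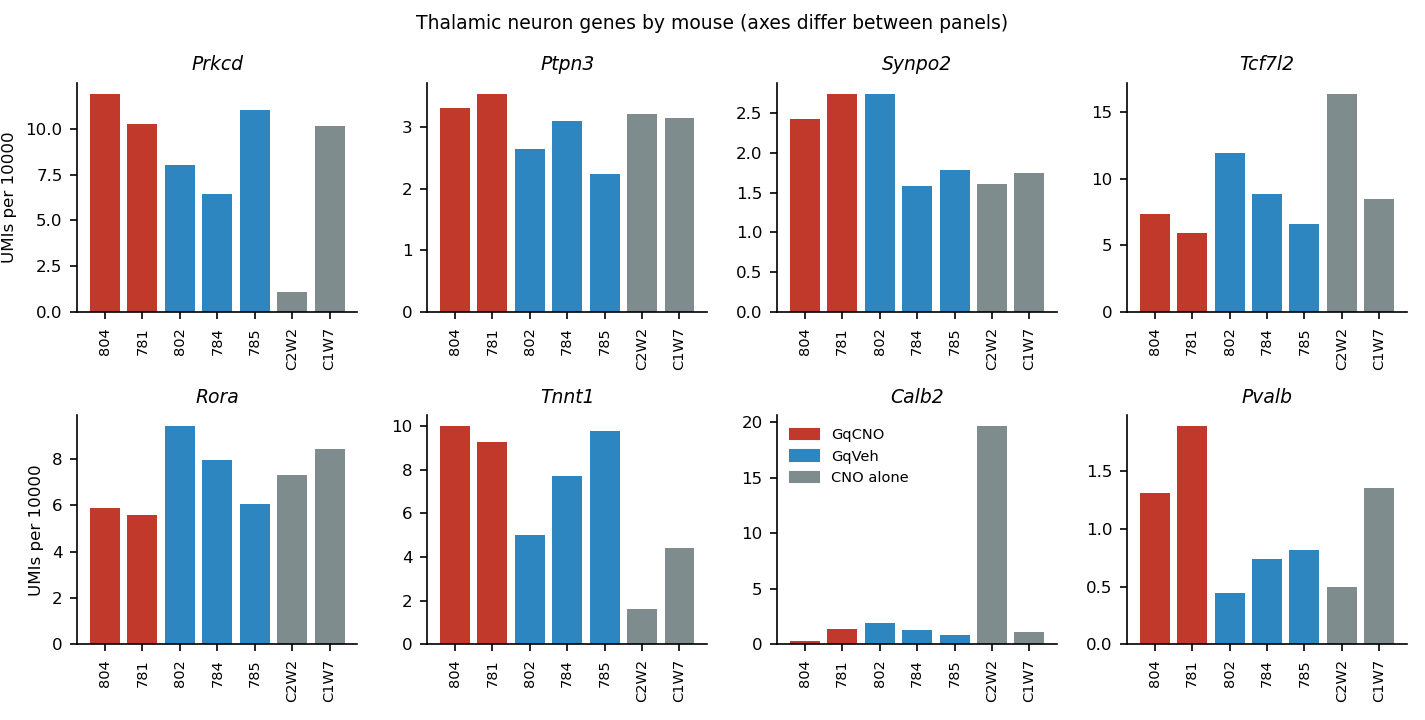
Levels (UMIs per 10000, bars, linear axes from 0, each panel with its own scale) of Prkcd, Ptpn3, Synpo2, Tcf7l2, Rora, Tnnt1, Calb2 and Pvalb in the thalamus of each mouse, with the 2 GqCNO mice at the left of each panel. C2W2 stands apart with 1.11 for Prkcd and 19.7 for Calb2.

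Some neuronal genes differed widely between the columns, most of all through mouse C2W2. Calb2, the calcium-binding protein calretinin of midline thalamic neurons, was at 0.31 and 1.39 in GqCNO mice, 1.94, 1.35 and 0.82 in GqVeh mice and 19.7 and 1.10 in CNO alone mice. Nrgn, which codes for neurogranin, a calmodulin-binding protein, was at 1.55 and 1.83 in GqCNO mice, 3.28, 2.49 and 1.08 in GqVeh mice and 18.1 and 4.05 in CNO alone mice. C2W2 was far above every other mouse for both, and the log2 differences between GqCNO mice and all controls, -1.20 for Calb2 and -0.98 for Nrgn, contain that mouse. Within array 2, which does not hold C2W2, they were 0.27 for Calb2 and -0.25 for Nrgn. Tnnt1, a troponin T gene with strong expression in thalamic relay nuclei of the mouse, was at 9.98 and 9.26 in GqCNO mice, 5.03, 7.71 and 9.76 in GqVeh mice and 1.61 and 4.40 in CNO alone mice, with the groups overlapping through GqVeh mouse 785. Of 22 tested relay neuron genes, 9 had a positive difference and 13 a negative one, with a median of -0.04 that was 0.15 without mouse 781 and -0.23 without mouse 804. The 11 listed genes of hippocampal and cortical neurons, Nrgn among them, summed to 49.4 in C2W2, against 20.8 to 26.9 in the other mice. Whether the discs lay in different subdivisions or took in tissue outside the thalamus was not tested, nor the part of this in other genes.

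No gene of the thalamus passed the test between GqCNO mice and all controls. Across 6399 genes with a mean of at least 0.25 UMIs per 10000, limma gave 0 genes (0%) with a Benjamini-Hochberg adjusted p under 0.05, and the smallest adjusted p was 0.998. edgeR's quasi-likelihood test on the recovered UMIs also gave 0, with 149 genes higher and 189 lower before adjustment. The median of all log2 differences was -0.006, and 5% to 95% of genes lay between -0.36 and 0.36. The precision was limited: the median standard error was 0.211, and the median half-width of the 95% confidence interval was 0.441. Before adjustment, 102 genes were higher (1.59% of those tested) and 112 lower (1.75%) at a p under 0.05. With 2 mice against 5, an exact permutation test of 1 gene has 21 regroupings and its smallest two-sided p is 0.0476. Both GqCNO mice lay above all 5 controls for 235 genes (3.67%) and below all 5 for 254 genes (3.97%). The split of unadjusted calls depended on the scaling, with 196 higher and 90 lower after TMM scaling, 80 higher and 150 lower in the values as deposited, and 91 higher and 171 lower with mitochondria-encoded genes left out of the total. With the array as a block, 503 genes (7.86%) had an unadjusted p under 0.05, 237 higher and 266 lower, and none an adjusted p under 0.05.

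**Figure D2:**
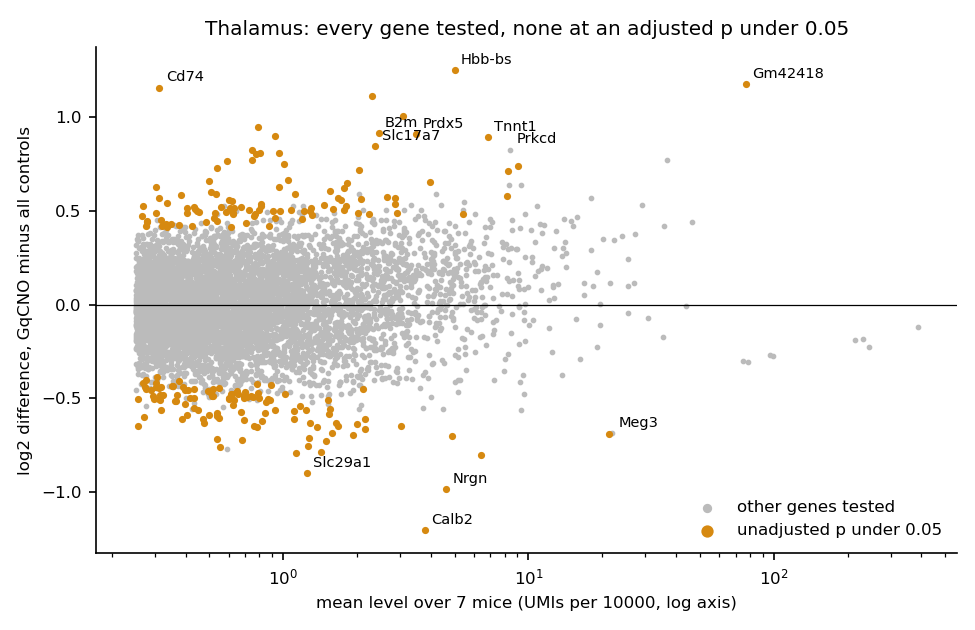
Log2 difference between GqCNO mice and all controls (vertical axis) against the mean level over 7 mice (horizontal log axis, UMIs per 10000) for the 6399 tested thalamus genes, each a point. The middle 90% of differences lie between -0.36 and 0.36, and the labelled genes at the edges, among them Cd74 at 1.16, did not pass after adjustment.

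The genes described next were picked for the size of their difference among those with an unadjusted p under 0.05 and with both GqCNO mice beyond all controls, so their separation is how they were found and not a result. None passed after adjustment. Among the 12 with the largest positive differences, Prdx5, a peroxiredoxin that removes peroxides, was at 4.43 and 6.37 in GqCNO mice, 2.69, 2.96 and 4.32 in GqVeh mice and 1.61 and 2.05 in CNO alone mice. GqVeh mouse 785 came close to the lower GqCNO mouse, and the difference was 0.91 ± 0.24 (SE, n = 2 against 5 mice, limma). Fh1, the fumarate hydratase of the citric acid cycle, was at 1.46 and 1.68 in GqCNO mice, 0.697, 0.876 and 1.19 in GqVeh mice and 0.371 and 1.05 in CNO alone mice. Psmb5, a catalytic subunit of the proteasome, was at 2.54 and 2.48 in GqCNO mice, 1.44, 1.85 and 1.71 in GqVeh mice and 1.11 and 1.25 in CNO alone mice. The GqCNO mice lay well clear of the controls for Psmb5 and less so for Fh1. Nudt19, which hydrolyses coenzyme A, had a difference of 0.82 ± 0.23 and was at 0 in C2W2.

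Others of the 12 are known from neurons or astrocytes. Nefh, the heavy neurofilament of large axons, was at 3.39 and 2.63 in GqCNO mice, 1.69, 1.48 and 2.27 in GqVeh mice and 1.48 and 1.30 in CNO alone mice. Nsmf, which codes for a messenger between synaptic NMDA receptors and the nucleus, was at 13.2 and 10.0 in GqCNO mice, 9.30, 6.43 and 7.52 in GqVeh mice and 5.44 and 6.05 in CNO alone mice. Slc17a7, the vesicular glutamate transporter of cortical and some thalamic neurons, was at 3.78 and 3.41 in GqCNO mice, 2.84, 1.82 and 1.79 in GqVeh mice and 0.74 and 2.25 in CNO alone mice. In all 3 the GqVeh mice and CNO alone mice overlapped or lay close, below the GqCNO mice. Etnppl, a phospholyase of astrocytes, was at 1.26 and 1.34 in GqCNO mice, 0.50, 0.88 and 0.75 in GqVeh mice and 0.12 and 0.60 in CNO alone mice. Sgk1, a kinase gene induced by glucocorticoids, was at 1.35 and 1.11 in GqCNO mice, 0.80, 0.81 and 0.37 in GqVeh mice and 0.12 and 0.65 in CNO alone mice. The differences of Etnppl and Sgk1 were 0.80 ± 0.23 and 0.77 ± 0.24. The rest were Vps41, which tethers endosomes to lysosomes (0.63 ± 0.21), Tdrd7, of RNA granules (0.63 ± 0.20), and the haemoglobin gene Hba-a1 (1.01 ± 0.33).

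The 12 with the largest negative differences were of mixed kinds. Slc29a1, the equilibrative nucleoside transporter that carries adenosine across membranes, was at 0.49 and 0.62 in GqCNO mice, 1.79, 1.25 and 1.12 in GqVeh mice and 2.35 and 1.10 in CNO alone mice, a difference of -0.90 ± 0.24. Dgkh, a diacylglycerol kinase, was at 0.65 and 0.70 in GqCNO mice, 1.49, 1.62 and 0.93 in GqVeh mice and 1.73 and 1.75 in CNO alone mice. Akap11, an anchor of protein kinase A, was at 0.83 and 0.85 in GqCNO mice, 1.84, 1.45 and 1.27 in GqVeh mice and 2.47 and 1.75 in CNO alone mice. The GqCNO mice lay close together for these 3 genes, and the controls ranged more widely above them. Camk2n1, an inhibitor of calcium/calmodulin-dependent kinase II, was at 15.4 and 12.3 in GqCNO mice, 19.7, 22.3 and 15.9 in GqVeh mice and 45.2 and 18.1 in CNO alone mice, so GqVeh mouse 785 came close to GqCNO mouse 804 and C2W2 was far above the rest. Crh, the neuropeptide corticotropin-releasing hormone, was at 0.02 and 0 in GqCNO mice, 0.90, 0.13 and 0.04 in GqVeh mice and 0.49 and 0.20 in CNO alone mice, which is a few UMIs in several columns. The others were Celf2, an RNA-binding protein (-0.70 ± 0.29), Golga4, a golgin (-0.65), Chst1, a sulfotransferase (-0.69), Ly6h (-0.65), Dbpht2 (-0.72), Zcchc12 (-0.65) and AC149090.1 (-0.79). Leaving out C2W2, 20 of the 23 genes of both groups that were still tested kept an unadjusted p under 0.05, and Camk2n1, Celf2 and Ly6h lost it. Leaving out either GqCNO mouse, 14 of the 24 kept it.

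**Figure D3:**
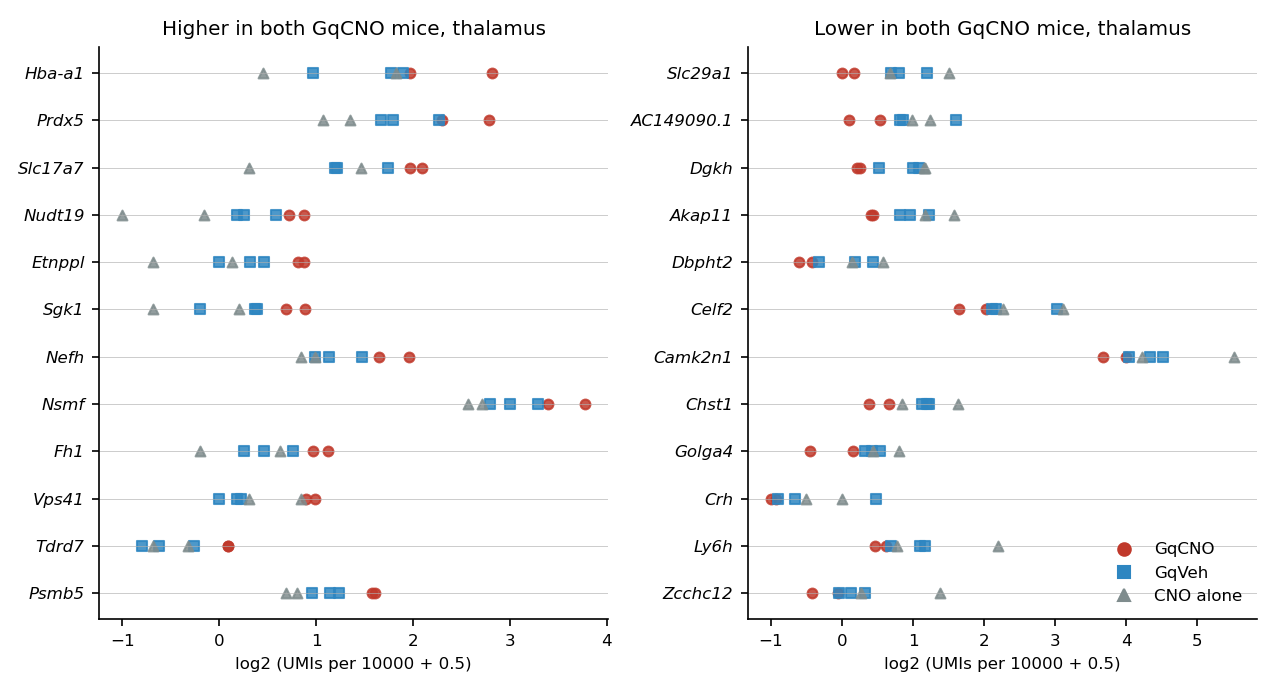
Level of the 24 genes in each mouse on a log2 axis (log2 of UMIs per 10000 plus 0.5), with the 12 higher genes in one panel and the 12 lower genes in the other. The markers of the 2 GqCNO mice lie beyond those of all 5 controls for each gene, which is how the genes were chosen.

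Against each control group on its own, the number of unadjusted calls differed. Between GqCNO mice and GqVeh mice 83 genes (1.3%) had an unadjusted p under 0.05, 37 higher and 46 lower, with a smallest adjusted p of 0.999. Between GqCNO mice and CNO alone mice 600 genes (9.38%) did, 325 higher and 275 lower, with a smallest adjusted p of 0.35. Between GqVeh mice and CNO alone mice, which differ in virus and in drug, 502 genes (7.84%) did, 282 higher and 220 lower. Each pair of these comparisons shares a group of mice. CNO alone is the group that holds C2W2: with C2W2 as its lone mouse 108 genes passed after adjustment against GqCNO mice and 45 against GqVeh mice, and with C1W7 as its lone mouse 0 did in either comparison. With the array as a block, 4 genes passed between GqCNO mice and CNO alone mice, all at an adjusted p of 0.0289 in limma: Tnnt1 (1.65), Prdx5 (1.33), Nudt19 (1.38) and Nrgn (-2.07). By the rule of an unadjusted p under 0.05 in the same direction against GqVeh and against CNO alone, 37 genes (0.578%) differed from both, 19 higher and 18 lower.

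Antigen presentation genes stood out in 1 of the GqCNO mice, 781. Cells show peptides to the immune system on class I molecules made of B2m and of H2-K1 or H2-D1, and microglia and other phagocytes do so on class II molecules that need Cd74. Interferons induce these genes, with Bst2 as another of the targets. B2m was at 1.42 in GqCNO mouse 804 and 7.64 in GqCNO mouse 781, 2.14, 1.38 and 1.97 in GqVeh mice and 1.36 and 1.25 in CNO alone mice. Mouse 804 thus lay within the control range, and mouse 781 far above it. H2-K1 was at 0.45 and 2.66 in GqCNO mice, 0.70, 0.34 and 0.71 in GqVeh mice and 0.25 and 0.55 in CNO alone mice. H2-D1 was at 0.45 and 3.28 in GqCNO mice, 0.70, 0.54 and 1.01 in GqVeh mice and 0.37 and 0.40 in CNO alone mice. The pattern was that of B2m in both, though reads from class I genes resemble each other closely and could have been assigned between them. Cd74 was at 0.25 and 1.60 in GqCNO mice, 0, 0.03 and 0.26 in GqVeh mice and 0 and 0.05 in CNO alone mice. Ctss, a lysosomal protease that trims the class II chaperone, was at 0.67 and 2.81 in GqCNO mice, 0.65, 0.57 and 1.15 in GqVeh mice and 0.37 and 0.25 in CNO alone mice. Again mouse 781 stood alone, and mouse 804 lay inside the control range for both genes.

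Against all controls, Cd74 had a difference of 1.16 ± 0.28 (SE). Its unadjusted p, 0.000473 in limma, was the smallest of all 6399 genes, with an adjusted p of 0.998. Genes were chosen for testing by their mean over all mice, mouse 781 included. The high value of mouse 781 thus helped Cd74 to be tested and favoured a positive difference, which limits the meaning of its rank. The differences of B2m, H2-K1, H2-D1 and Ctss were 0.92 ± 0.35, 0.81 ± 0.32, 0.81 ± 0.33 and 0.90 ± 0.29. Within array 1, which sets mouse 804 against its own controls, the difference of B2m was -0.21, of H2-K1 0.01 and of H2-D1 -0.10. Within array 2, which sets mouse 781 against its own controls, it was 2.02 for B2m, 1.63 for H2-K1 and 1.75 for H2-D1. With mouse 781 as the lone GqCNO mouse against the 5 controls, and assumed to vary as the other groups do, 6 genes (0.0938%) had an adjusted p under 0.05. They were Cd74 (1.90, adjusted p 0.00393 in limma), B2m (1.96, 0.00661), H2-D1 (1.81, 0.00661), H2-K1 (1.67, 0.0212), Ctss (1.65, 0.0212) and Bst2 (1.34, 0.0399). With mouse 804 as the lone GqCNO mouse the differences were -0.13 for B2m, -0.06 for H2-K1 and -0.19 for H2-D1.

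**Figure D4:**
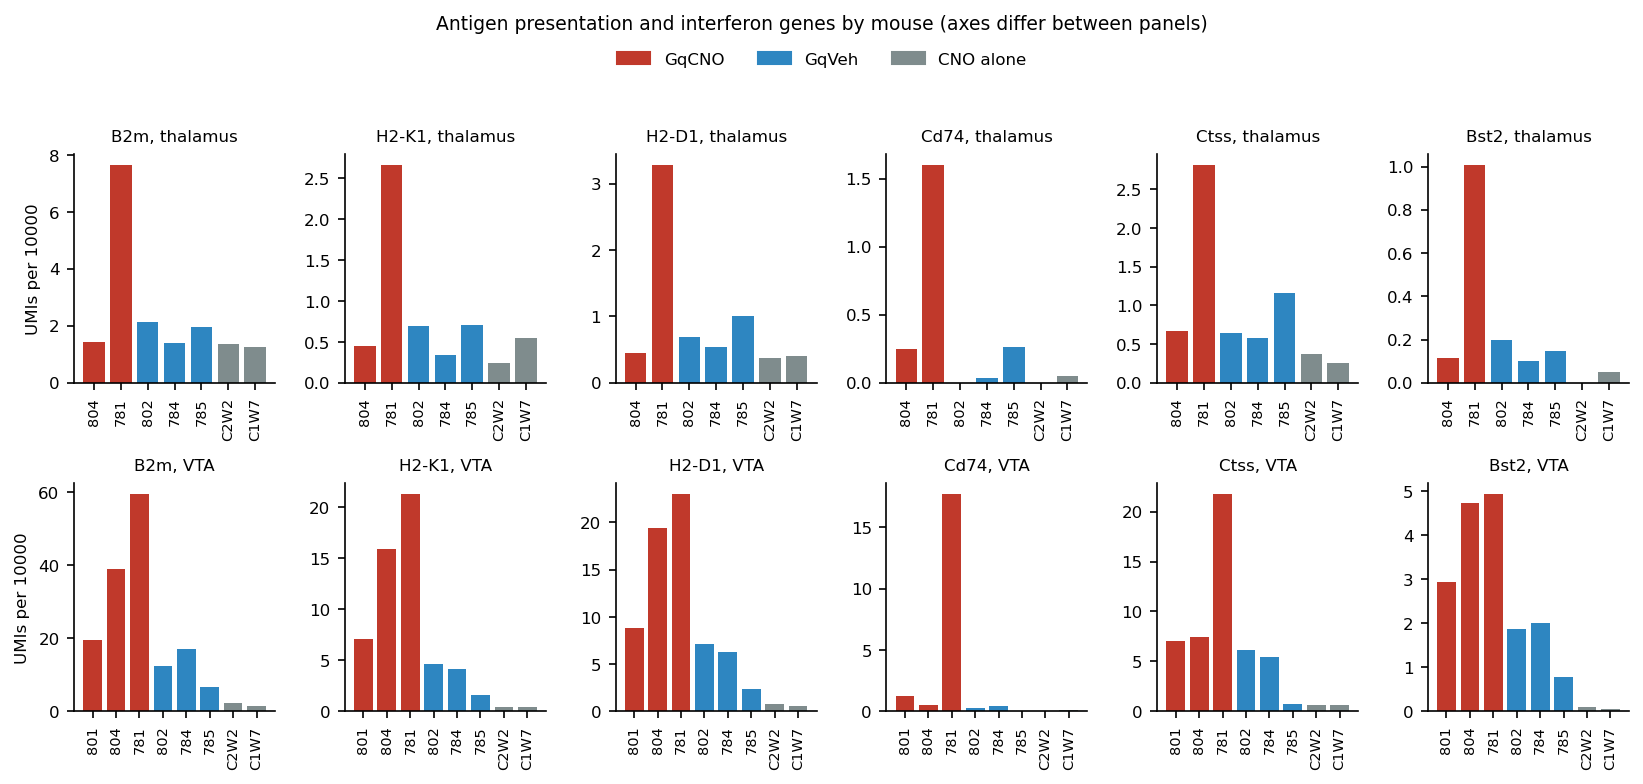
Levels (UMIs per 10000, bars, linear axes from 0) of B2m, H2-K1, H2-D1, Cd74, Ctss and Bst2 by mouse in the thalamus (top row) and in the VTA (bottom row, with the third GqCNO mouse 801), on axes that differ between panels. In the thalamus GqCNO mouse 781 is the highest bar of each panel (7.64 for B2m), and GqCNO mouse 804 (1.42 for B2m) is among the controls.

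The starts of genes in this group are printed to show the letters they share. The windows run from 250 bases before to 50 bases after the RefSeq start (GRCm38.p6), 5′ to 3′ on the strand of the gene. Those of B2m (chr2:122147437-122147736, + strand) and Bst2 (chr8:71537423-71537722, - strand) hold GAAANNGAAA, the core of an interferon-stimulated response element, in capitals, and Bst2 holds it at a pair of overlapping positions. Those of H2-K1 (chr17:34000298-34000597, - strand) and H2-D1 (chr17:35262844-35263143, + strand) hold TGACGC, the core of a cyclic AMP response type element in class I promoters, in capitals.
B2m: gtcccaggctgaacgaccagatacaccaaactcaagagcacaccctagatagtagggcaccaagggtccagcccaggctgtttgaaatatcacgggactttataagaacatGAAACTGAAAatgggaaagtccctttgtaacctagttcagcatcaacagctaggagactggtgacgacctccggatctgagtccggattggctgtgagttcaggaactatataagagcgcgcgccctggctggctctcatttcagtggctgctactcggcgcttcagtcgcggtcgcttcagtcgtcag
Bst2: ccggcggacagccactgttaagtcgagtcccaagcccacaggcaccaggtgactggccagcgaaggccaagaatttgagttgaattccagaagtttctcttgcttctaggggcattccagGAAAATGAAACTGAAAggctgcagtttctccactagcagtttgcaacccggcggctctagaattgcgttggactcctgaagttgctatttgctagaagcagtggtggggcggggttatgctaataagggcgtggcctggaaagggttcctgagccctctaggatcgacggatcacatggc
H2-K1: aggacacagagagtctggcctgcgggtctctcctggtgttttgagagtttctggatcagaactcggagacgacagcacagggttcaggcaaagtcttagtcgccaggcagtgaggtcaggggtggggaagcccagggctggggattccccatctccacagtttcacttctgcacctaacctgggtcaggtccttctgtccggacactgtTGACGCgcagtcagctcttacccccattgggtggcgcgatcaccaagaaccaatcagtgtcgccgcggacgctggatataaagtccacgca
H2-D1: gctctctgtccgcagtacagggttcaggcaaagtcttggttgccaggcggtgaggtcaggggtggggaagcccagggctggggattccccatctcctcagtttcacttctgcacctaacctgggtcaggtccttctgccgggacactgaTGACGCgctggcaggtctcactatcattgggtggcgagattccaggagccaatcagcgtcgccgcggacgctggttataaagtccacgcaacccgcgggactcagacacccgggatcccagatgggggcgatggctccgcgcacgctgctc
Searched on both strands, GAAANNGAAA occurred in 1131 of 32851 RefSeq promoter windows of this length (3.44%) and TGACGC in 2432 (7.4%). The window of Ctss also holds GAAANNGAAA once. A match describes letters and not a bound site.

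Mouse 781 was the highest of the 7 mice for 36 of the 38 listed interferon response and antigen presentation genes, against 1943 of 15722 genes (12.4%) across the files, and mouse 804 was within the control range for 27 of the 38. Mouse 804 was the highest for 0 of the 38, beside 1707 of the 15722 genes (10.9%). It was above all controls for 10 of the 38, beside 741 of the 6399 tested genes (11.6%). That last share covers only genes with a mean of at least 0.25, unlike the 38. Most of these genes were sparse, and 10 passed the filter on low levels. The filter took the mean over all 7 mice, so high values in mouse 781 helped members to pass and favoured a positive difference. All 10 had a positive difference. At an unadjusted p under 0.05, 5 of them were higher, beside 1.59% of all genes, and none passed after adjustment. Their median was 0.55 beside -0.006 for all genes. Without mouse 804 that median was 1.01, and without mouse 781 it was -0.001. The summed level of the 38 listed genes was 6.90 and 32.6 in GqCNO mice, 8.01, 5.12 and 8.53 in GqVeh mice and 5.07 and 5.05 in CNO alone mice. Bst2, under the filter, was at 0.11 and 1.01 in GqCNO mice, 0.20, 0.10 and 0.15 in GqVeh mice and 0 and 0.05 in CNO alone mice.

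Mouse 781 was also the highest of the 7 mice for 13 of 20 listed microglia genes and 5 of 10 listed complement genes, beside the 12.4% of all genes of the files. C1qa, a chain of the first complement component, was at 0.34 and 1.68 in GqCNO mice, 0.15, 0.81 and 0.41 in GqVeh mice and 0.12 and 0.25 in CNO alone mice. C1qb was at 0.58 and 1.55 in GqCNO mice, 0.30, 0.64 and 0.63 in GqVeh mice and 0.12 and 0.30 in CNO alone mice. Mouse 781 was the highest for both, and mouse 804 lay inside the control range. The median of the 3 tested complement genes was 0.73, and 0.04 without mouse 781. All 9 tested microglia genes had a positive difference with a median of 0.32, and without mouse 781 6 of 9 did, with a median of 0.045. The summed level of the 20 listed microglia genes was 30.6 and 52.1 in GqCNO mice, 25.8, 41.0 and 40.4 in GqVeh mice and 21.2 and 23.5 in CNO alone mice. P2ry12 and Aif1, defining microglia genes that the study used to leave discs out, stayed at 0.20 and 0.18 (P2ry12) and 0.11 and 0.31 (Aif1) in GqCNO mice, against 0.07 to 0.20 and 0 to 0.45 in the controls. More microglia and more RNA per microglial cell cannot be told apart in columns of mixed cells. Of 8 T cell genes in the files, Cd3e, Cd3d, Cd3g, Nkg7 and Lck were at 0 in all 7 mice. Mouse 781 was the highest for 2 of the others. The summed level of the T cell list was 0.02 and 0.10 in GqCNO mice and 0 to 0.20 in the controls. The nearest dopamine disc of mouse 781 lay 11.6 disc spacings from its thalamus discs, against 4.61 in mouse 804. The part of these values in the levels of mouse 781 was not tested.

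Set against the dopamine regions of the same mice, the thalamus differed in the response of a small number of genes. In the VTA 96 of 6312 tested genes (1.52%) passed between GqCNO mice and all controls, 76 higher and 20 lower, and in the SN 40 of 6174 (0.648%) did, 23 higher and 17 lower, with mouse 801 included in both. Without mouse 801, which left the 7 mice of the thalamus, 116 of 6261 genes passed in the VTA and 32 of 6123 in the SN. The VTA count was 37 without mouse 804 and 47 without mouse 781, and the SN count was 16 without mouse 804, 75 without mouse 781, 67 without mouse 784 and 23 without either C2W2 or C1W7. The difference between regions was tested per mouse, in 7 mice without 801, as the VTA minus the thalamus and as the SN minus the thalamus. It passed for 11 of 5366 genes (0.205%) for the VTA and 3 of 5093 (0.0589%) for the SN. The SN rested on 1 to 7 discs a mouse, 1 of them in mouse 781. The VTA rested on 2 to 49 discs a mouse, with 37 and 49 in CNO alone mice. It had 2 discs and 25808 UMIs in mouse 785, where 1 UMI is 0.387 per 10000. In mouse 804 it had 4 discs and 40212 UMIs, where 1 UMI is 0.249 per 10000. Low VTA levels of these 2 mice are thus a few UMIs.

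Astrocyte and microglia genes were among those whose difference was larger in the VTA than in the thalamus. Gfap, the intermediate filament of reactive astrocytes, was at 0.92 and 1.06 in the thalamus of GqCNO mice, 2.79, 0.84 and 0.48 in that of GqVeh mice and 0.49 and 0.60 in that of CNO alone mice. In the VTA it was at 6.35, 11.9 and 13.4 in GqCNO mice 801, 804 and 781, 4.8, 4.66 and 0.775 in GqVeh mice and 0.48 and 0.40 in CNO alone mice. The thalamus groups overlapped, with a difference of 0.12 ± 0.31, and the VTA groups did not, with a difference of 2.41 ± 0.36. The difference between regions was 2.60 (95% confidence interval 1.77 to 3.44, adjusted p 0.00406 in limma) for the VTA and 2.32 (1.36 to 3.28, 0.0103) for the SN. Discs rich in Gfap had been left out in every region. Aqp4, the water channel of astrocyte endfeet, differed by -0.28 in the thalamus and 1.42 in the VTA, and S100a6, a calcium-binding protein, by -0.004 and 1.39. C1qa differed by 0.73 in the thalamus and 3.06 in the VTA, C1qc by 0.12 and 2.29, and Ctsz, a lysosomal cathepsin, by 0.08 and 1.84. Ly6a, a surface antigen induced by interferon, differed by 0.50 in the thalamus and 2.08 in the VTA.

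H2-K1 passed in both tests of region. In the VTA it was at 7.13, 15.9 and 21.3 in GqCNO mice 801, 804 and 781, 4.68, 4.12 and 1.55 in GqVeh mice and 0.38 and 0.43 in CNO alone mice. Mouse 804, among the controls for its thalamus, was thus above all controls in its VTA. The difference between regions was 2.37 (1.39 to 3.35, adjusted p 0.0218 in limma) for the VTA and 2.26 (1.30 to 3.22, 0.0103) for the SN. B2m in the VTA was at 19.4, 39.0 and 59.5 in GqCNO mice 801, 804 and 781, 12.3, 17.0 and 6.59 in GqVeh mice and 2.16 and 1.37 in CNO alone mice, and GqCNO mouse 781 was the highest in both regions. Cd74 in the VTA was at 1.26, 0.50 and 17.8 in the same GqCNO mice and at 0 to 0.44 in the controls.

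For 3 genes the difference was lower in the VTA than in the thalamus, and for 1 of them, Aldh1a1, also in the SN. Aldh1a1, the retinal-oxidising enzyme of ventral dopamine neurons, was at 1.93 and 1.96 in the thalamus of GqCNO mice, 1.49, 1.78 and 2.35 in that of GqVeh mice and 0.62 and 0.95 in that of CNO alone mice, so the GqCNO mice lay inside the range of the GqVeh mice and both CNO alone mice lay below them. In the VTA it was at 6.17, 0.746 and 5.17 in GqCNO mice, 17.7, 7.41 and 9.30 in GqVeh mice and 12 and 18.7 in CNO alone mice. The difference between regions was -2.68 for the VTA (adjusted p 0.0218) and -2.22 for the SN (adjusted p 0.0192). Cck, the neuropeptide cholecystokinin, differed by 0.14 in the thalamus and -1.25 in the VTA, and Tppp3, a tubulin-binding protein, by 0.32 and -0.999. Between the SN and the thalamus neither passed, at -1.79 for Cck (adjusted p 0.509 in limma) and 0.03 for Tppp3 (adjusted p 0.998). With the array as a block the Tppp3 difference for the VTA was -1.81 and no longer passed, at an adjusted p of 0.0589. Each of the 14 tests of region lost its call in at least 2 of the 7 fits that left out 1 mouse, and all 14 did without mouse 804 and without mouse C1W7. In those fits the VTA difference of Gfap ranged between 2.40 and 2.95, that of H2-K1 between 1.71 and 3.03, that of Aldh1a1 between -3.76 and -1.59 and that of Tppp3 between -2.79 and -0.93, and the SN difference ranged between 1.80 and 2.83 for Gfap, between 1.30 and 3.22 for H2-K1 and between -2.84 and -1.61 for Aldh1a1.

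**Figure D5:**
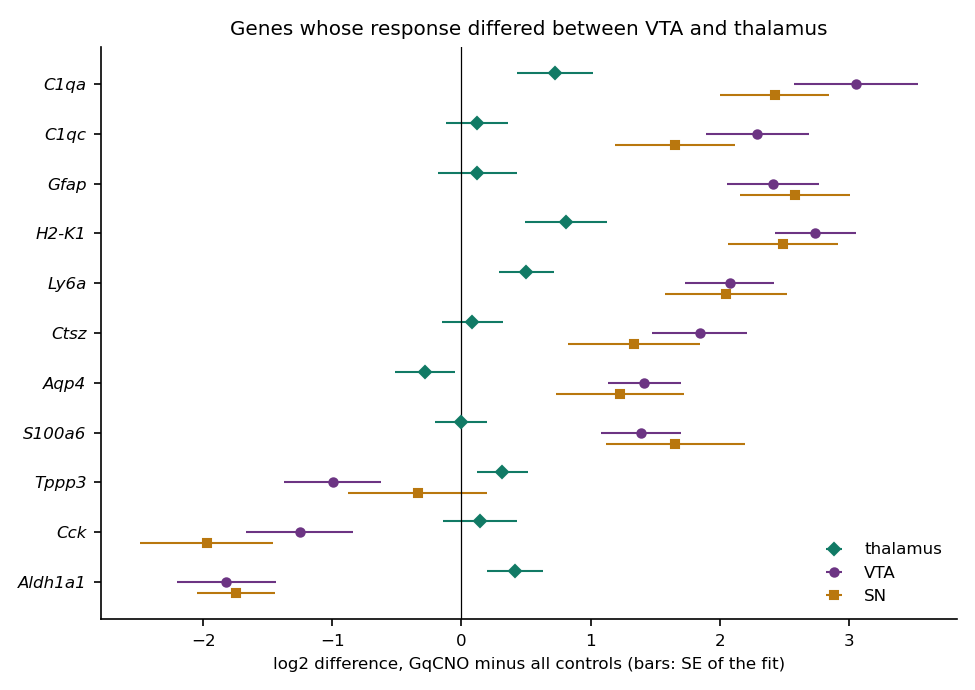
Log2 difference between GqCNO mice and all controls (points, with bars of 1 standard error) in the thalamus, VTA and SN for the genes of the tests of region. Gfap lies at 0.12 in the thalamus and 2.41 in the VTA, and Aldh1a1 at 0.41 in the thalamus and -1.82 in the VTA.

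The thalamus values of the genes called in the dopamine regions are given as a description. These genes were chosen for their values in those regions, so the medians of the regions are not a test of one against the other. Of the 76 genes higher in the VTA, 32 were tested in the thalamus, where their median difference was 0.27 and in the VTA 1.43. None passed in the thalamus after adjustment, and 10 were higher at an unadjusted p under 0.05, beside 1.59% of all genes. For these genes the median difference from the mean of the controls was 0.05 for mouse 804 and 0.42 for mouse 781. Of the 20 genes lower in the VTA, 12 were tested in the thalamus, with a median of 0.21 there and -1.12 in the VTA. Of the 23 genes higher in the SN, 18 were tested, with a median of 0.74 in the thalamus and 2.14 in the SN. Of the 17 genes lower in the SN, 14 were tested, with a median of -0.27 in the thalamus and -1.82 in the SN. The regions come from the same mice and sections.

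Genes of the respiratory chain lay to one side of the thalamus distribution. All 66 tested nuclear-encoded subunits had a positive difference, with a median of 0.38 beside -0.006 for all genes. At an unadjusted p under 0.05, 4 of the 66 were higher, beside 1.59% of all genes, and none passed after adjustment. Atp5g1, which codes for a ring subunit of ATP synthase, was at 4.54 and 6.09 in GqCNO mice, 1.89, 3.40 and 6.07 in GqVeh mice and 2.10 and 3.65 in CNO alone mice. Sdhc, an anchor of succinate dehydrogenase in the membrane, was at 2.16 and 2.55 in GqCNO mice, 1.59, 1.58 and 2.01 in GqVeh mice and 1.11 and 1.35 in CNO alone mice. Ndufa3, a complex I subunit, was at 4.18 and 3.51 in GqCNO mice, 1.74, 2.83 and 3.24 in GqVeh mice and 2.10 and 2.40 in CNO alone mice. The groups overlapped for Atp5g1, through GqVeh mouse 785, and not for Sdhc and Ndufa3. Both GqCNO mice lay above all controls for 3 of the 66 subunits, which is near the 3.67% of all genes. Summed over the 66 genes, the level was 308 and 393 in GqCNO mice, 199.9, 319 and 378 in GqVeh mice and 189 and 247 in CNO alone mice, so the groups overlapped. The median was 0.58 within array 1 and 0.29 within array 2, and 0.25 to 0.51 with 1 mouse left out in turn, 0.25 being without mouse 781. It was 0.22 against GqVeh mice and 0.61 against CNO alone mice, and 0.36 for GqVeh mice against CNO alone mice. In the VTA the median of the same list was -0.25 and in the SN -0.07. Abundant genes in general leaned the same way: of 340 tested genes with a mean of at least 4, 68.2% had a positive difference with a median of 0.12, and 73 of 77 ribosomal protein genes, a set chosen after values were seen, did with a median of 0.18. After every column was thinned to the UMIs of the smallest, 64 of the 66 subunits had a positive difference, with a median of 0.38. The part of abundance in this shift was not tested.

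The 13 mitochondria-encoded subunits had 1 positive and 12 negative differences, a median of -0.19 and none with an unadjusted p under 0.05. Without mouse C1W7 the median was -0.02 with 4 of 13 positive, and without mouse 804 it was -0.05. Their sum was 1196 and 1425 in GqCNO mice, 1250, 1429 and 1384 in GqVeh mice and 1245 and 2448 in CNO alone mice, with the high value in mouse C1W7 alone. Of 18 tested genes of metallothioneins and oxidative stress, 16 had a positive difference with a median of 0.24 (0.17 to 0.34 with 1 mouse left out). At an unadjusted p under 0.05, 2 of the 18, Prdx5 and Txn1, were higher, beside 1.59% of all genes. Txn1, the cytosolic thioredoxin, was at 1.96 and 2.66 in GqCNO mice, 1.04, 2.09 and 1.56 in GqVeh mice and 0.99 and 1.40 in CNO alone mice.

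Genes that neuronal activity induces did not pass the test in the thalamus. Of 30 listed activity-regulated genes 10 were tested, with 4 positive and 6 negative differences, a median of -0.05 and none with an unadjusted p under 0.05. Among them the neuropeptide precursor Vgf had a difference of -0.30 and the transcription factor gene Jund -0.31. Calcium handling genes had 20 negative and 6 positive differences of 26, with a median of -0.23 that was -0.30 to -0.10 when any 1 mouse was left out, -0.10 being without mouse 781 and -0.14 without C2W2. At an unadjusted p under 0.05, 1 of the 26 was higher and 3 were lower, beside 1.59% and 1.75% of all genes. Genes of Gq, phospholipase C and protein kinase C signalling had a median of -0.15 over 19 tested members, which was 0.002 without mouse 781 and -0.01 without mouse C2W2. Gnaq, the Gq alpha subunit itself, was at 1.24 and 0.85 in GqCNO mice, 1.99, 1.99 and 1.34 in GqVeh mice and 1.98 and 2.15 in CNO alone mice. Both GqCNO mice lay below all controls, with a difference of -0.63 ± 0.22 that did not pass after adjustment. Of 29 synaptic vesicle release genes 14 had a positive difference and 15 a negative one. Cplx1, a complexin that clamps vesicle fusion, had a difference of 0.58, and its relative Cplx2 one of -0.57. Potassium channel genes (21 tested) held no member with an unadjusted p under 0.05, beside 1.59% of all genes higher and 1.75% lower.

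Pvalb, the calcium buffer of fast-spiking neurons, was at 1.30 and 1.88 in GqCNO mice, 0.45, 0.74 and 0.82 in GqVeh mice and 0.49 and 1.35 in CNO alone mice. Mouse C1W7 overlapped the lower GqCNO mouse, and the difference was 0.75 ± 0.24. Sst, the neuropeptide somatostatin, had a difference of -0.42 ± 0.18 at levels of 0.495 or less in every mouse. Of 10 tested glucocorticoid response genes, 8 had a positive difference with a median of 0.24. At an unadjusted p under 0.05, 1 of the 10, Sgk1, was higher, beside 1.59% of all genes. The median was 0.53 within array 1 and -0.02 within array 2, and 0.05 without mouse 804. Tsc22d3, another gene induced by glucocorticoids, was at 2.07 and 1.55 in GqCNO mice, 1.49, 1.04 and 1.19 in GqVeh mice and 1.11 and 1.25 in CNO alone mice. Of 16 tested clock genes 8 had a positive difference, and Ciart, a repressor in the clock, was at 0.52 and 0.49 in GqCNO mice, 0.25, 0.30 and 0.34 in GqVeh mice and 0.12 and 0.10 in CNO alone mice. The receptors that clozapine and dopamine bind were sparse in the thalamus, with 4 of 24 listed genes tested and none with an unadjusted p under 0.05.

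Other cell types of the discs were compared through their markers. Oligodendrocyte genes had 16 positive differences of 18 with a median of 0.26, and 0.17 without mouse C2W2. The median was 0.07 against GqVeh mice and 0.50 against CNO alone mice, and 0.40 for GqVeh mice against CNO alone mice. Their summed level overlapped between groups, at 170.3 and 129 in GqCNO mice, 170.4, 114 and 144 in GqVeh mice and 96.2 and 106 in CNO alone mice. Of 17 astrocyte genes 12 had a positive difference with a median of 0.12, which was -0.02 against GqVeh mice and 0.42 against CNO alone mice, 0.05 without mouse C1W7 and 0.24 without mouse 781. Of 11 endothelial and mural genes 5 had a positive difference. None of these 3 lists held a member with an unadjusted p under 0.05, beside 1.59% of all genes higher and 1.75% lower. All 4 tested blood cell genes were higher at that p, beside the same 1.59%, with a median of 1.06. Hbb-bs, a beta-globin gene, was at 12.2 and 4.93 in GqCNO mice, 4.23, 4.85 and 1.94 in GqVeh mice and 0.74 and 6.20 in CNO alone mice, so mouse 804 was the highest and mouse 781 lay among the controls. The median of the 4 genes was 1.85 within array 1 and 0.36 within array 2, and 0.61 without mouse 804. Cholesterol synthesis genes had 12 negative differences of 14 with a median of -0.14, and -0.05 without mouse C2W2. It was 0.02 within array 2.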

How the data were processed

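The deposited files give, for each gene, mouse and region, a signal that the authors describe as a median normalized average over the chosen discs. Sections of 10 µm were prepared with Visium v1 and read with Space Ranger on mm10, by the submitters' processing notes (version not given in the sources used here). The low values of each deposited signal column were whole multiples of 1 step (all under 200 steps within 0.05 steps), so whole UMIs were recovered. Each column was rescaled to 10000, 0.5 was added before log2, and genes with a mean of at least 0.25 over the 7 mice were tested. limma 3.58.1 (R 4.3.3) fitted 3 group means with a variance trend, and GqCNO was set against the mean of the 5 control mice, with Benjamini-Hochberg adjustment over all tested genes. Genes differing from both control groups had an unadjusted p under 0.05 in 1 direction against each. Region differences were fitted per mouse. edgeR 4.0.16 on the recovered UMIs was an alternative.

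Named genes were thalamus and dopamine markers, the 12 largest differences in each direction among genes with an unadjusted p under 0.05 and no overlap, genes called in any contrast or in the region fits, and members of gene lists. The members and lists were chosen with earlier results of these data known. p-values measure the spread between mice, and array 1 or 2 was compared within itself and as a block. UMI intervals cover counting error only. The fits were tested on simulated data.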

Additional observations from a re-analysis of the deposited data

Results flagged for a closer look

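The response to GqCNO differed between the VTA and the thalamus of the same 7 mice for 11 genes, by a limma test of the difference itself over 5366 genes. The difference, VTA minus thalamus on the log2 scale, was 2.60 for Gfap, 2.70 for C1qa, 2.62 for C1qc, 2.37 for H2-K1, 2.08 for Ly6a, 2.01 for Ctsz, 1.90 for Aqp4 and 1.76 for S100a6, and -2.68 for Aldh1a1, -2.29 for Cck and -1.86 for Tppp3, with adjusted p between 0.00406 and 0.0442. Between the SN and the thalamus it differed for 3 genes, by 2.32 for Gfap, 2.26 for H2-K1 and -2.22 for Aldh1a1, with adjusted p between 0.0103 and 0.0192 in limma.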

How the results depend on the processing

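Against all controls 0 genes passed after adjustment under every alternative that kept all 7 mice, and 0 to 6 with 1 mouse left out, the 6 being those without mouse 804. The same range was 0 to 2 against GqVeh, 0 to 108 against CNO alone, 0 to 45 for GqVeh against CNO alone, 12 to 76 for genes differing from both control groups, 0 to 48 for the VTA minus the thalamus and 0 to 18 for the SN minus the thalamus. GqCNO against CNO alone gave 4 genes with the array as a block and 1 after thinning to the smallest column. Genes differing from both control groups, 37 in the report, numbered 120 with no filter, 9 at a mean of at least 1, 131 with the array as a block, 12 by the methods' t-test, 70 in edgeR and 78 after thinning. For the VTA minus the thalamus, 11 in the report, the count was 0 with an added constant of 0.1, with no filter or by the methods' t-test, 24 with a constant of 1, 3 at a mean of at least 1, 6 with 2 groups and 4 after thinning. For the SN minus the thalamus, 3 in the report, it was 0 under TMM, a constant of 0.1, no filter, a mean of at least 1, no variance trend, 2 groups, the methods' t-test and thinning. The causes were not tested. Unadjusted calls against all controls, 214 in the report, ranged from 62 at a mean of at least 1 to 503 with the array as a block, with 453 under no filter, 340 by the methods' t-test, 338 in edgeR and 347 after thinning, and from 47 to 382 with 1 mouse left out. The number of mice, 2 of GqCNO and 2 of CNO alone, and the 80837 UMIs of C2W2 limit all of these values. No replicate numbers are shared between groups in the labels, so no fit paired mice by number, and the array served as the block.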

Other observations

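Gm42418, a gene that overlaps a ribosomal RNA unit, was at 138 and 95.5 UMIs per 10000 in the thalamus of GqCNO mice, 40.2, 129 and 77.6 in that of GqVeh mice and 40.3 and 20.2 in that of CNO alone mice. It was the 1 gene that passed between GqCNO mice and CNO alone mice after thinning to the smallest column, with a log2 difference of 2.05 and an adjusted p of 0.0257 in limma.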
